A study of Homo sapiens with 26 samples.

Results

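The genes described here encode motors that move along microtubules or actin (kinesins, dyneins and myosins), the dynactin and intraflagellar transport proteins that work with them, and proteins of the centrosome, the gamma-tubulin ring complex, the tubulins and the MICAL family. They were chosen by symbol alone: every listed gene whose name starts with KIF, KLC, DYNC, DYNLL, DNAH, DCTN, IFT, MYO, MYH, CEP, TUBG, TUBA, TUBB or MICAL (followed by a digit where the family is numbered), plus PCNT. The name rule used no measured value, but it was set with earlier results of these data known and covers only genes the authors called. Of 4083 symbols in the 6 deposited lists, 58 carried such a name, and the human annotation holds 199 protein-coding genes with these names.

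The study mapped RNA bound to EZH2, the PRC2 enzyme that methylates histones, and by its title dealt with artifacts from mispriming in reverse transcription. Small RNA that co-precipitated with EZH2, with an IgG2a control antibody, or taken as input without antibody was sequenced from untreated K562 cells, an immortalised chronic myeloid leukaemia line (1 library each), and from T98G and U87MG cells, immortalised glioblastoma lines (2 libraries each per line). In T98G, fragmented long RNA was sequenced from the same 3 kinds of material (2 libraries each), together with 1 EZH2 iCLIP library, in which RNA is crosslinked to the protein by UV light before precipitation. In U87MG, polyadenylated RNA was sequenced after siRNA against EZH2 or against GFP (2 libraries each, no antibody).

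Each deposited list holds the authors' calls, not values per library. The 3 small RNA lists name exons, 397 in K562, 2573 in T98G and 669 in U87MG. Further lists name 824 full-length EZH2 target loci in T98G, 43 retained introns beside small RNA exons in U87MG, and 1342 rows of genes called under siEZH2 in U87MG. Sequencing depth is therefore unknown, no replicate error can be attached to any count, and no test between groups was possible. Intervals below are 95% Wilson intervals that cover counting error only, and exons of 1 gene are not independent. Whether the cells express cell type markers, and how much of each transcript they hold, cannot be read from these lists.

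As background, kinesins mostly carry cargo towards the plus ends of microtubules, and dyneins carry it towards the minus ends, which are anchored at the centrosome by gamma-tubulin ring complexes. Intraflagellar transport uses kinesin for the way out along the cilium and cytoplasmic dynein 2 for the way back, and axonemal dyneins make motile cilia beat. Many of these proteins also build the mitotic spindle, and spindle kinesins have been studied as drug targets in dividing tumour cells. Myosins work on actin, and MICAL proteins, which are not motors, include enzymes that oxidise actin and so take filaments apart.

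The library kit named in the labels ligates a 3′ adapter to the RNA and primes reverse transcription on it. That adapter starts with the letters AGATCGG (known of the kit in general, not given in the labels), so these letters were looked for near the peaks. The T98G list gives the distance of a peak middle from the middle of its exon, without saying in which direction. The direction used here is the one that places AGAT downstream of the peaks. It was chosen on the sequence of the whole list, members included, and so was the window of bases 11 to 15. Among the 2394 peaks of genes outside these families, AGAT started at bases 11 to 15 in 25.7% with that direction and in 3.38% with the other. All coordinates are 1-based on GRCh37 (hg19), and the sequences are those of the reference genome. Of the member peaks, 4 had AGATCG with its first base 11 to 15 bases past the peak middle, and they are shown because they hold the longest stretches of that adapter. Each line runs 5′ to 3′ on the RNA strand from 15 bases before the peak middle to 35 bases after it, in lower case. Capitals mark only the letters shared with the adapter that start at bases 11 to 15. AGAT outside that window, as in the MYO9B and KIF7 lines, is left in lower case.
MYO9B: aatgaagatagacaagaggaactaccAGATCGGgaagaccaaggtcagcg
TUBGCP2: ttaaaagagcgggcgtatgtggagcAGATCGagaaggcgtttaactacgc
KIF7: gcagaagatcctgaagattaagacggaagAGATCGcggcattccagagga
KIF16B: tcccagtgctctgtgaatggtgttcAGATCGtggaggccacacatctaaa

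The first window lies at chr19:17301986-17302035 (plus strand, exon 20 of 40 of MYO9B, with its last 7 bases past the exon end), and its 7 shared letters start 12 bases after the peak middle. The TUBGCP2 window lies at chr10:135102401-135102450 (minus strand, exon 10 of 18). The KIF7 window lies at chr15:90176422-90176471 (minus strand, exon 13 of 19), and the KIF16B window at chr20:16407754-16407803 (minus strand, exon 15 of 26). All 4 are in coding sequence, and the KIF16B exon was called in U87MG as well as T98G.

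Another 4 windows hold a shorter match of 5 letters, AGATC. They are all the member peaks with a match of exactly this length, and the choice to show them was made after their values were seen.
KIF5B exon 20: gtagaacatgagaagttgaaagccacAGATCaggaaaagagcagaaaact
DYNC2H1 exon 3: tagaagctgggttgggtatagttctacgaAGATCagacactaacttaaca
DYNC2H1 exon 31: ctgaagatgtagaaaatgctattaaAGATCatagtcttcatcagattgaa
DYNC1H1 exon 49: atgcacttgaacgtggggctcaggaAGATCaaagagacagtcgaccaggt
They lie at chr10:32308798-32308847 (minus strand), chr11:102984887-102984936 (plus strand), chr11:103036658-103036707 (plus strand) and chr14:102496002-102496051 (plus strand), again in coding sequence apart from the last 2 bases of the DYNC1H1 window.

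For comparison, these are the first 4 member windows in genome order without AGAT in that place, among wholly coding exons called in T98G alone. Exons also called in another line, such as exon 36 of IFT172, were passed over.
CEP170 exon 11: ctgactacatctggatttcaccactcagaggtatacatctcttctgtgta
IFT172 exon 20: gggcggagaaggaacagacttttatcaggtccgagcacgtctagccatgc
DCTN1 exon 29: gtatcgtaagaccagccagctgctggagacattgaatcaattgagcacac
CEP135 exon 20: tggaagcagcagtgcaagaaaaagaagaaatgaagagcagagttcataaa
They lie at chr1:243335979-243336028, chr2:27685612-27685661 and chr2:74590157-74590206 (all minus strand) and chr4:56877594-56877643 (plus strand). The first runs 20 bases past its exon end and the second 1 base.

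Across all member peaks of T98G, 69 of 70 exons had a single peak middle, and KIF22 was the exception. AGAT started 11 to 15 bases downstream in 20 of the 69 (29.0%, interval 19.6 to 40.6%), beside 25.8% of the 2463 such peaks in the whole list. In the window 20 bases further downstream AGAT started in 0 of 69, which allows a share of up to 4.35%, and in 3.41% of all peaks. The member share thus lay near that of the whole list. Since direction and window were chosen on this motif, the gap between the windows is no support for its presence there.

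Longer matches were rarer. AGATC was found in 8 of 69 member peaks (11.6%, beside 13.4% of all), AGATCG in 4 (5.80%, beside 4.59% of all) and AGATCGG in 1 (1.45%, beside 2.07% of all). The 3 letters AGA alone stood there in 36 of 69 (52.2%), and 20 bases further in 6 (8.70%), beside 44.6% and 14.2% of all peaks. These motifs contain one another, so each count includes the longer ones.

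The 20 member peaks with AGAT belonged to 15 of the 40 member genes in the T98G list. Among the families, kinesins had 6 of 15 peaks with AGAT, cytoplasmic dyneins 6 of 14, gamma-tubulin complex genes 2 of 4, myosins 2 of 8, centrosomal genes 3 of 16 and the axonemal dynein DNAH5 1 of 1. Intraflagellar transport genes had 0 of 7, and the 2 peaks each of the dynactin and MICAL genes had none. With so few peaks per family these shares could not be told apart. AGAT was present in 5 of 19 peaks in exons also called in K562 or U87MG (26.3%) and in 15 of 50 in exons called in T98G alone (30.0%). Over all peaks these shares were 30.0% of 526 and 24.6% of 1937, in the opposite order.

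**Figure D1:**
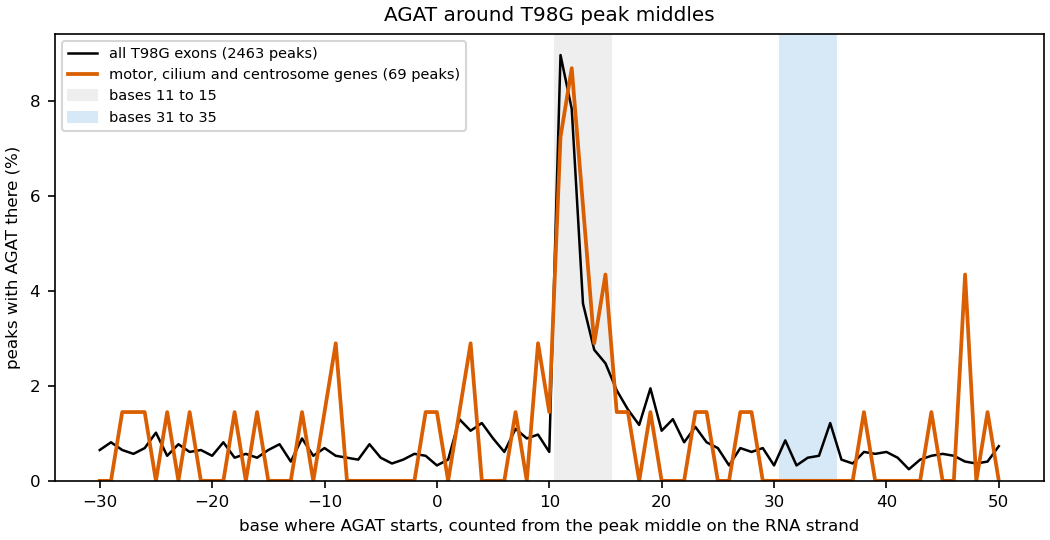
Percent of T98G peaks with AGAT starting at each base, counted from the peak middle along the RNA strand, for 69 peaks in motor, cilium and centrosome genes (orange) and for all 2463 peaks (black). The direction of the distance was chosen on this motif; at bases 11 to 15, AGAT starts in 29.0% of the member peaks and in 25.8% of all peaks, and no member peak has one at bases 31 to 35.

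Peak positions in K562 and U87MG are not in the lists, so the whole exon was searched there, on both strands. On the RNA strand, 0 of 8 member exons held AGATCG in K562, which allows a share of up to 37.5%, beside 7.81% of all K562 exons. The same strand held it in 6 of 70 member exons in T98G (8.57%, beside 10.6% of all) and in 3 of 24 in U87MG (12.5%, beside 10.8% of all). The opposite strand held it in 0 of the 8, 3 of the 70 (4.29%) and 0 of the 24, beside 1.26%, 2.99% and 1.05% of all exons.

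The T98G list held the most members. Small RNA exons were called in 40 of the 199 genes in T98G (20.1%, interval 15.1 to 26.2%), beside 8.49% of all 20149 protein-coding genes. In U87MG they were called in 18 genes (9.05%, 5.80 to 13.8%), beside 2.58% of all. In K562 they were called in 8 genes (4.02%, 2.05 to 7.73%), beside 1.6% of all. In any of the 3 lines, 46 of 199 (23.1%, 17.8 to 29.4%) had a called exon, beside 9.77% of all.

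The other lists held fewer members. The full-length T98G list held 12 (6.03%), beside 4.27% of protein-coding genes, and the siEZH2 table also held 12 (6.03%), beside 6.3%. The intron list held 2 (1.01%), beside 0.169%. In these 3 lists the member share was near the background or rested on very few genes.

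**Figure D2:**
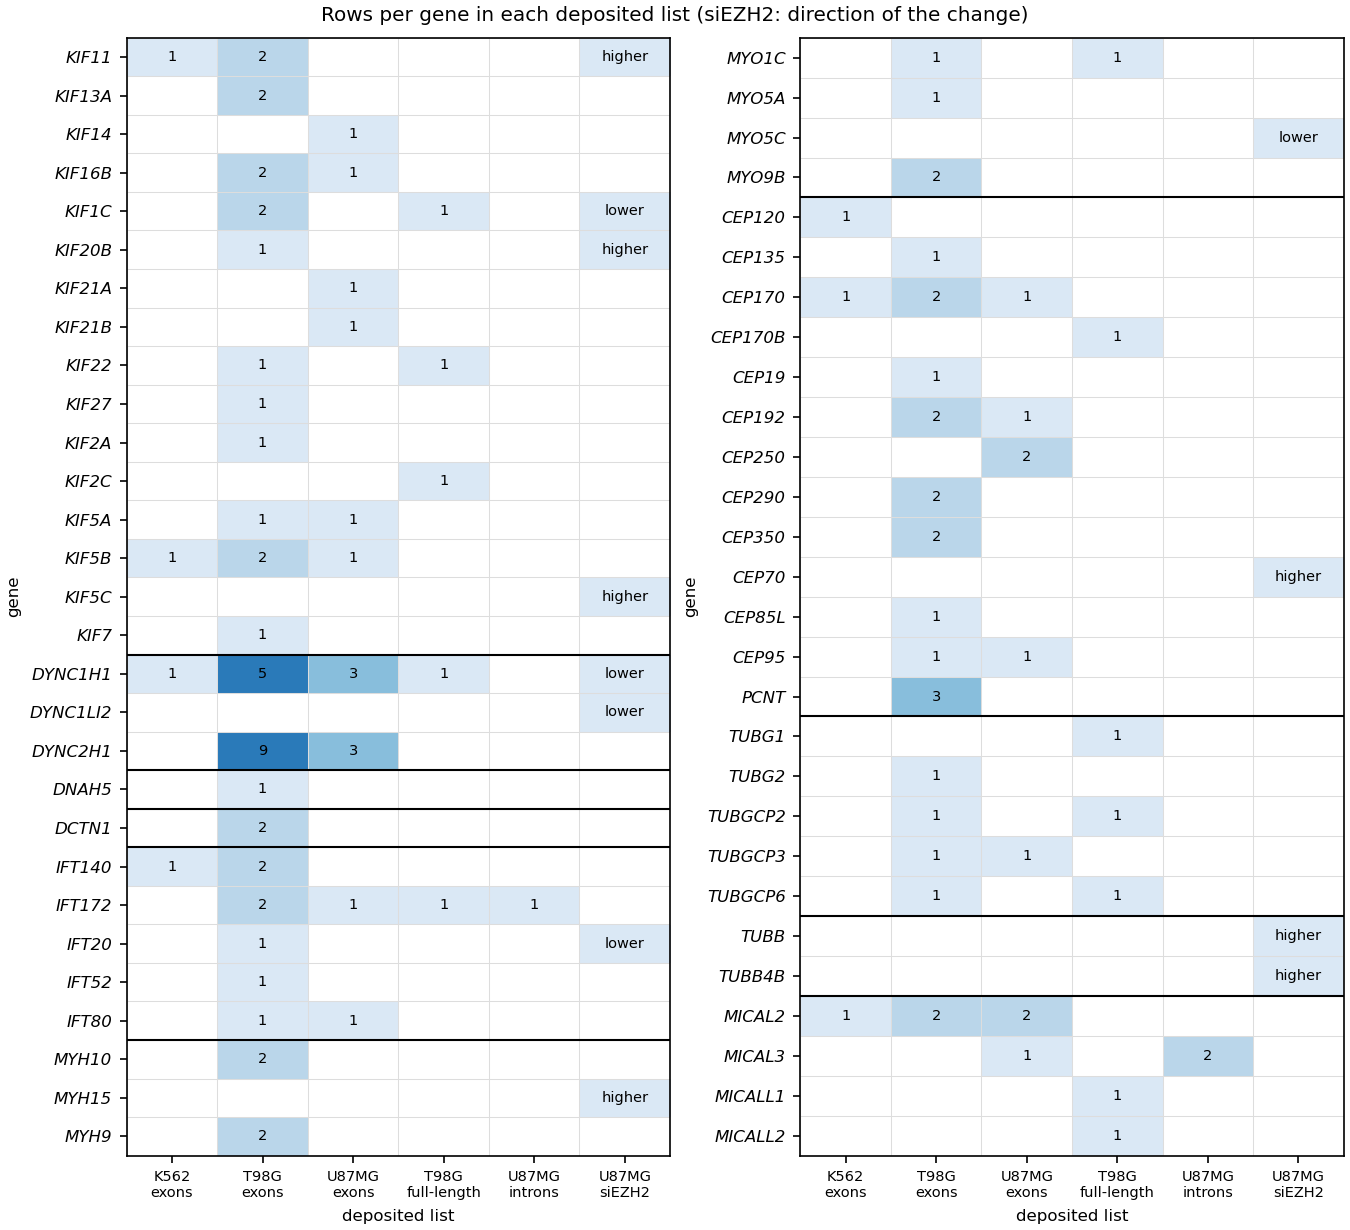
Listed genes, grouped by family between black lines, against the 6 deposited lists; each number is the number of rows (exons, loci or introns) of that gene in that list, and the siEZH2 column gives the direction of the change. DYNC2H1 has 9 exons in T98G and DYNC1H1 appears in 5 lists.

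Genes of these families are long. Over all protein-coding genes, the share with a called exon rose with length in each small RNA list. Length was summed over the exons of 1 transcript per gene, the canonical one where the annotation marks it. The 199 genes had a median of 5155 bp, against 2862 bp for all protein-coding genes. Within the 199, the 58 listed genes had a median of 5937 bp and the 141 others 4387 bp. Among the genes of 3481 to 5287 bp, 10 of 37 members (27.0%) and 10.8% of all genes had a T98G exon. Among the genes of at least 5287 bp these shares were 24 of 97 (24.7%) and 19.1%, and for U87MG 13 of 97 (13.4%) and 7.17%. Among the genes of 2344 to 3481 bp, members were below all genes in T98G (1 of 26, 3.85%, against 7.02%). In the group of 3481 to 5287 bp, 4 of 37 members (10.8%) had an exon in U87MG and 4 of 37 (10.8%) in K562, against 3.05% and 2.13% of all genes. For K562 the shares in the longest group were 4 of 97 (4.12%) and 3.08%, and at 2344 to 3481 bp 0 of 26 and 1.44%. For U87MG they were 1 of 26 (3.85%) and 1.76% at 2344 to 3481 bp. Among the genes of up to 1452 bp, 1 of 9 members (11.1%) and 1.59% of all genes had a T98G exon. Among those of 1453 to 2344 bp these shares were 4 of 30 (13.3%) and 3.90%. In these 2 shortest groups 0 of 9 and 0 of 30 members were called in U87MG, and likewise in K562. In T98G members thus lay above all genes in every length group except that of 2344 to 3481 bp. The size of the gap did not rise or fall steadily with length.

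The calls were also counted per exon, within genes that had at least 1 called exon. In T98G, called regions covered 74 of the 1350 annotated exons of the 40 listed members (5.48%, 4.39 to 6.83%), beside 6.70% of the exons of all listed protein-coding genes. The shares were 24 of 691 (3.47%) beside 4.41% in U87MG, and 8 of 272 (2.94%) beside 5.31% in K562. A gene with many exons enters this count through a single call, and the 40 members with T98G calls had 1350 exons where the 1707 genes of the whole list had 36978. The per-exon shares therefore do not compare how readily exons were called. What part gene length and exon number have in the member counts was not tested.

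The member exons were short and mostly coding. Their median width was 150 bp in T98G, 144 bp in U87MG and 150.5 bp in K562, beside 187, 166 and 188 bp for all exons of those lists. Exons were placed on the gene's canonical transcript, or on another of its transcripts where they missed the canonical exons. In T98G 57 of 70 member exons (81.4%) lay wholly in coding sequence, beside 59.6% of all 2232 exons that could be placed. In U87MG this held for 23 of 24 (95.8%, beside 68.4%), and in K562 for 6 of 8 (75.0%, beside 52.1%). Only 12 of the 70 T98G exons were wider than 300 bp, against 951 of all 2573.

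**Figure D3:**
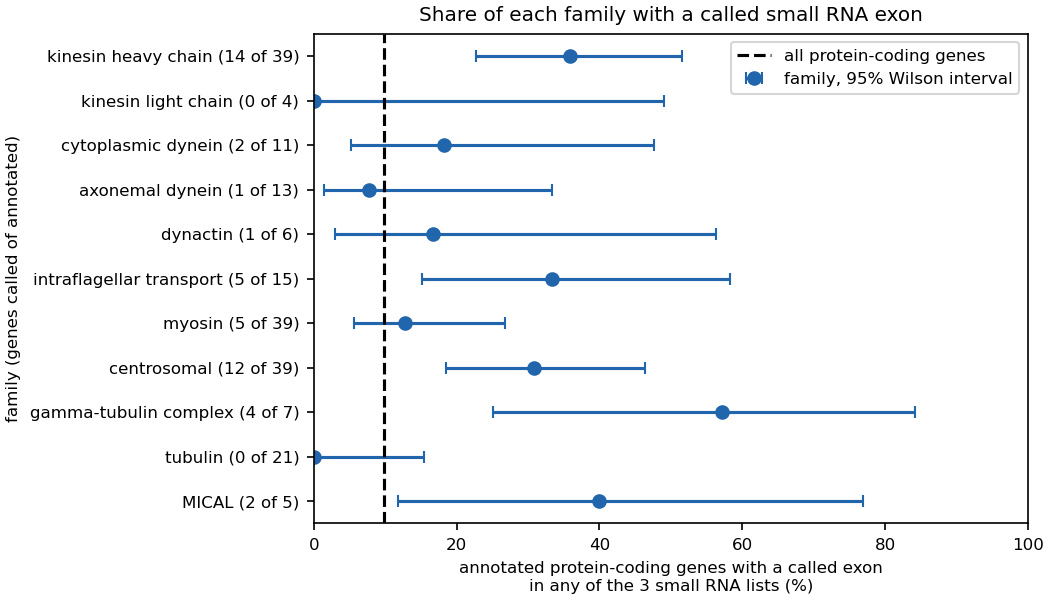
Percent of the annotated protein-coding genes of each family with a called exon in any of the 3 small RNA lists, with 95% Wilson intervals; the dashed line is the 9.77% of all protein-coding genes. Kinesin heavy chains reach 35.9% and centrosomal genes 30.8%, and no tubulin or kinesin light chain gene is called.

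The 2 cytoplasmic dynein heavy chains carried more called exons than any other member. DYNC2H1, the motor of retrograde intraflagellar transport, had 9 exons in T98G, numbers 3, 4, 10, 20, 23, 26, 31, 61 and 87 of 89. Of these, exons 23, 31 and 61 were called in U87MG too, and none in K562. They span the gene from its start to its end, and 5 of the 9 peaks had AGAT 11 to 15 bases downstream (in exons 3, 4, 26, 31 and 61).

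DYNC1H1, the heavy chain of the dynein that carries vesicles, organelles and spindle components, had 5 exons in T98G, numbers 48, 49, 57, 60 and 66 of 78. Exons 49, 57 and 60 were also called in U87MG and exon 49 also in K562. All 5 lie in the 3′ part of the transcript, and only the peak in exon 49 had AGAT in the window. The gene was also in the full-length list and in the siEZH2 table, so it was in 5 of the 6 lists, more than any other member. These were the only 2 called of the 11 annotated genes with a DYNC or DYNLL symbol, so no light or intermediate chain listed under such a symbol had a small RNA exon.

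Of 13 axonemal dynein genes, which are the longest family with a median of 13725 bp, only DNAH5 was called, with exon 12 of 79 in T98G. DNAH5 is an outer arm heavy chain of motile cilia. DCTN1, the large dynactin subunit that links dynein to microtubules, had exons 24 and 29 of 32 in T98G and was the only dynactin gene called of 6. The call at its exon 24 is 302 bp wide, with 126 bases in the exons of the canonical transcript.

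Kinesin heavy chains formed the largest group, with 14 of 39 genes called (35.9%, interval 22.7 to 51.6%), while 0 of 4 kinesin light chain genes were. Among the mitotic kinesins, KIF11, which slides spindle microtubules apart, had exons 2 and 7 of 22 in T98G and exon 2 in K562. KIF14 and KIF20B, both needed for cytokinesis, had 1 exon each, in U87MG and T98G, and the microtubule depolymerase KIF2A had 1 in T98G. The chromokinesin KIF22 had a single region of 1388 bp in T98G that covers its last 4 exons and the introns between them.

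Among the transport kinesins, KIF5B, the widely expressed conventional kinesin heavy chain, had exon 20 of 26 called in K562 and T98G and exon 13 in T98G and U87MG. Its neuronal paralog KIF5A had exon 20 of 29 called in T98G and U87MG. KIF16B, a motor of early endosomes, had exons 5 and 15 of 26 in T98G and exon 15 in U87MG. KIF13A had exons 16 and 23 of 39 and KIF1C exons 18 and 21 of 23, all in T98G; both motors carry vesicles. KIF21A and KIF21B had 1 exon each in U87MG, and the Hedgehog pathway kinesin KIF7 and its relative KIF27 1 each in T98G.

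The called exons 20 of KIF5A and KIF5B are the counterparts of each other and are both 102 bp wide. They are shown with the uncalled exon 20 of KIF5C, because the called pair had the T98G peak in nearly the same place. Capitals mark the letters shared with the adapter start in the window downstream of the T98G peak.
KIF5A exon 20: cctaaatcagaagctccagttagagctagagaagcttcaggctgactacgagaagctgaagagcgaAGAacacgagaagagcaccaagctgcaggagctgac
KIF5B exon 20: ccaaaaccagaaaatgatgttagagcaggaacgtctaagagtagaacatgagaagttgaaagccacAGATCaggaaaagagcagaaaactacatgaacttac
KIF5C exon 20: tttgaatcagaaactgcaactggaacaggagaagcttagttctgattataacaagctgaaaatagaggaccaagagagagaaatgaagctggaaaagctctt
They lie at chr12:57970544-57970645 (plus), chr10:32308786-32308887 (minus) and chr2:149856937-149857038 (plus).

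The peak middle lay after base 53 of the KIF5A exon and after base 55 of the KIF5B exon. In both, the marked letters start at base 67 of the exon, as AGA in KIF5A and as AGATC in KIF5B. Aligned without gaps, 62.7% of their bases are identical, and the longest identical run is 8 bases. The KIF5C exon is identical to that of KIF5B at 50.0% of bases with a longest run of 6, and it was in none of the 3 small RNA lists. Compared without gaps on the sequences printed above, the KIF5C exon matches the KIF5A exon at the same share of bases as the KIF5B exon does. The uncalled exon is thus less like that of KIF5B, but as much like that of KIF5A as the called pair are alike. By comparison, the called exons 11 of CEP170 and 22 of CEP290, which are both 150 bp wide, share 32.0% of bases.

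**Figure D4:**
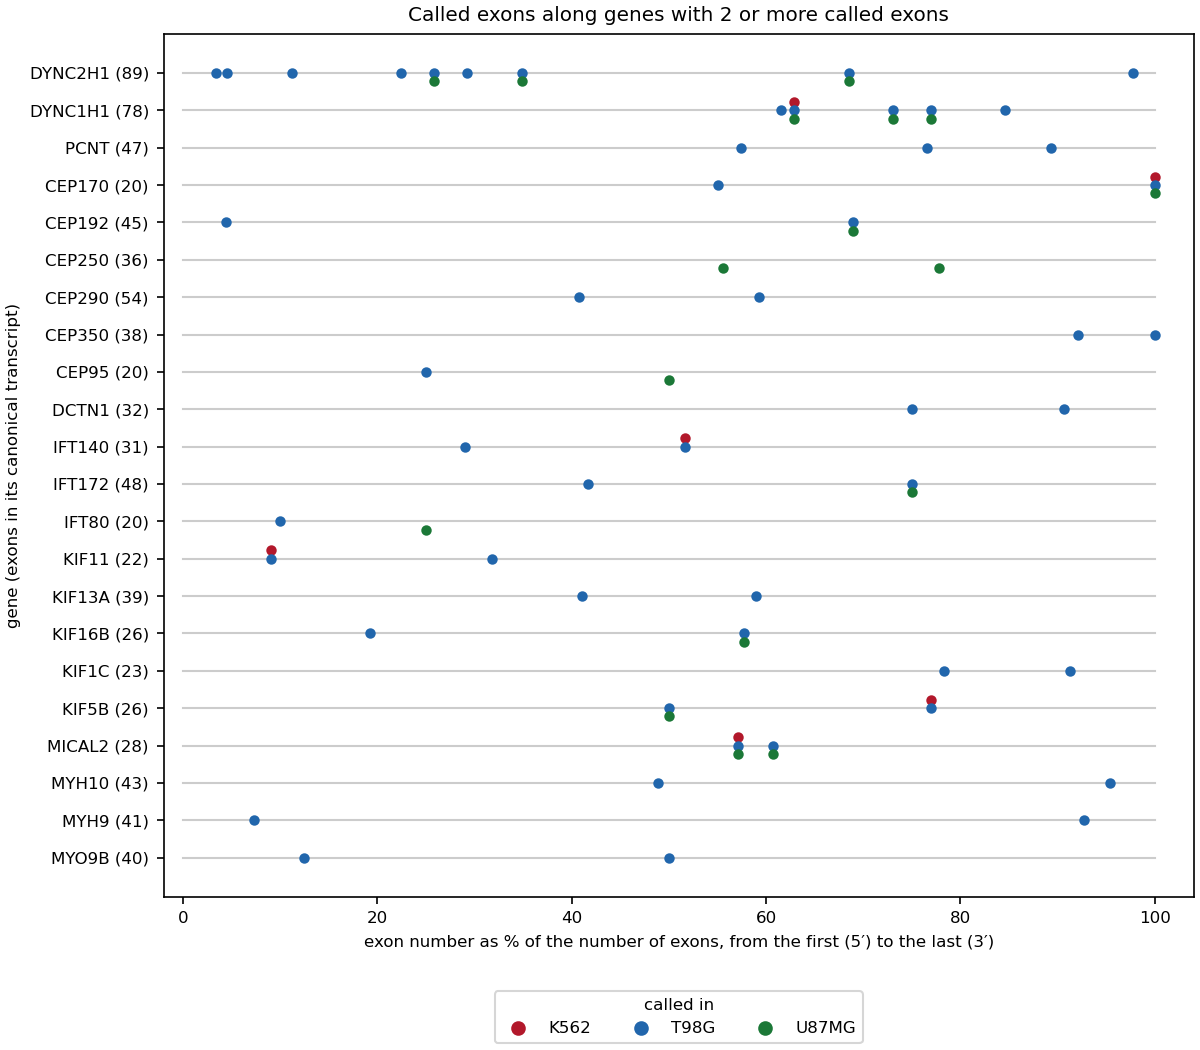
Position of each called exon along the 22 member genes with 2 or more called exons, as exon number in percent of the number of exons (given in brackets) from the 5′ end, coloured by cell line. DYNC2H1 has 9 exons spread over the gene, DYNC1H1 5 exons past the middle, and the exons of DYNC1H1, CEP170 and MICAL2 that carry 3 colours were called in all lines.

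Intraflagellar transport genes were called in 5 of 15 cases (33.3%, interval 15.2 to 58.3%). IFT140, a subunit of the A complex that works with dynein in the return transport, had exons 9 and 16 of 31 in T98G and exon 16 in K562. IFT172, a subunit of the B complex that works with kinesin, had exons 20 and 36 of 48 in T98G and exon 36 in U87MG. IFT80, also of the B complex, had exon 2 of 20 in T98G and exon 5 in U87MG, so its lines did not share an exon. The T98G region of IFT80 is 1210 bp wide, and only 83 of its bases lie in the exons of the canonical transcript. The B complex genes IFT20 and IFT52 had 1 exon each in T98G, in regions of 602 and 467 bp that reach past the exons of the canonical transcript.

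Myosins were called in 5 of 39 genes (12.8%, interval 5.60 to 26.7%), all in T98G alone, and that interval includes the 9.77% of all protein-coding genes. MYH9 and MYH10, the heavy chains of non-muscle myosins that drive cell contraction and cytokinesis, had 2 exons each, numbers 3 and 38 of 41 and numbers 21 and 41 of 43. MYO9B, an unconventional myosin, had exons 5 and 20 of 40. MYO1C, a membrane-bound single-headed myosin, and the vesicle motor MYO5A had 1 exon each. No muscle myosin heavy chain gene had a called small RNA exon.

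Centrosomal genes were called in 12 of 39 cases (30.8%, interval 18.6 to 46.4%). PCNT, the scaffold of the pericentriolar material, had exons 27, 36 and 42 of 47 in T98G. CEP170, a mother centriole protein, had its last exon, 20 of 20, called in all 3 lines, and exon 11 in T98G. That last exon spans 2311 bp at chr1:243287730-243290040 on the minus strand and is mostly 3′ UTR.

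CEP192, which recruits pericentriolar material, had exons 2 and 31 of 45 in T98G and exon 31 in U87MG. CEP290, a gatekeeper of the ciliary transition zone, had exons 22 and 32 of 54, and CEP350 exons 35 and 38 of 38, both in T98G. CEP250, which links the centrioles of a pair, had exons 20 and 28 of 36 in U87MG alone. CEP95 had exon 5 of 20 in T98G and exon 10 in U87MG. CEP135, CEP19 and CEP85L had 1 exon each in T98G, and CEP120, a centriole elongation factor, had 1 in K562, which was the only member exon called in that line alone.

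Gamma-tubulin complex genes were called in 4 of 7 cases (57.1%, interval 25 to 84.2%). TUBGCP3 had exon 8 of 22 called in T98G and U87MG. The other ring complex subunits TUBGCP2 and TUBGCP6 had 1 exon each in T98G. So did the gamma-tubulin TUBG2, in a region of 753 bp with 69 bases in the exons of the canonical transcript. By contrast, 0 of 21 alpha- and beta-tubulin genes were called, which allows a share of up to 14.3%, and that family is short, with a median of 1706 bp. Many tubulin genes are near-identical copies, and how reads shared by such copies were counted is not given in the sources used here.

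In the MICAL family 2 of 5 genes were called (40%, interval 11.8 to 76.9%). MICAL2, an actin-oxidising enzyme, had exon 16 of 28 called in all 3 lines and exon 17 in T98G and U87MG. MICAL3, another such enzyme, had exon 16 of 32 called in U87MG.

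Merged over the lines, the calls made 79 distinct exons in 46 genes. Of these, 51 were called in T98G alone, 8 in U87MG alone and 1 in K562 alone. A further 12 were shared by T98G and U87MG, 3 by K562 and T98G (in IFT140, KIF11 and KIF5B), and 4 by all lines. Genes with exons in all 3 lists numbered 5, among them CEP170, DYNC1H1, KIF5B and MICAL2, and KIF5B was there without 1 exon common to all lines. Another 10 genes were in 2 lists and 31 in 1. The same split over all genes with a called exon is not given, so these counts are not read as a trait of the members.

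The reference sequences of exons of DYNC1H1 and MICAL2 are printed because these coding exons were called in all 3 lines. Capitals mark a match to the adapter start of 4 or more letters in the window downstream of the T98G peak. AGAT elsewhere in the exon, as in that of DYNC1H1, stays in lower case.
DYNC1H1 exon 49: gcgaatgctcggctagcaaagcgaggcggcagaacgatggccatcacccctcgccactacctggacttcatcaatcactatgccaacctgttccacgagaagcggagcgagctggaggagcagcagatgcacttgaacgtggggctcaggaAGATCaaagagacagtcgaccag
MICAL2 exon 16: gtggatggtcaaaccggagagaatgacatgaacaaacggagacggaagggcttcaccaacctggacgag
They lie at chr14:102495876-102496049 (plus strand, 174 bp) and chr11:12257724-12257792 (plus strand, 69 bp). In T98G the peak middle was after base 141 of the DYNC1H1 exon and after base 29 of the MICAL2 exon. The DYNC1H1 exon has AGATC starting at base 152, and the MICAL2 exon has no AGAT in the window after its peak.

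As a share of each list, 7 of 8 K562 member exons were also in T98G (87.5%, interval 52.9 to 97.8%), beside 45.6% of all K562 exons. In the other direction this is 7 of 70 T98G member exons (10.0%), beside 7.03% of all. Between the glioblastoma lines, 16 of 24 U87MG member exons were in T98G (66.7%, 46.7 to 82.0%), beside 65.0% of all, and 16 of 70 T98G member exons were in U87MG (22.9%), beside 16.9%. For U87MG in T98G the members thus shared exons about as often as the whole list did, and the K562 shares rest on 8 exons. Every shared member exon had the same start and end in both lists, and so did every shared exon of the whole lists.

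The full-length list, which the labels tie to the iCLIP library of T98G, held 12 members. They were the kinesins KIF1C, KIF22 and KIF2C, the dynein DYNC1H1, the transport protein IFT172, the myosin MYO1C, the centrosomal CEP170B, the gamma-tubulin complex genes TUBG1, TUBGCP2 and TUBGCP6, and the MICAL relatives MICALL1 and MICALL2. KIF2C, a microtubule depolymerase of the centromere, was in no other list, and the same holds for TUBG1, CEP170B, MICALL1 and MICALL2. These loci are whole genes, from 5559 bp for TUBG1 to 86265 bp for DYNC1H1.

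Of the 12, 7 also had a small RNA exon in T98G (58.3% of the full-length members and 17.5% of the 40 small RNA members). They were DYNC1H1, IFT172, KIF1C, KIF22, MYO1C, TUBGCP2 and TUBGCP6. Over all protein-coding genes, 197 were in both lists, which is 22.9% of 860 and 11.5% of 1710. Both lists come from the same line, and the part of gene length in their overlap was not tested.

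In U87MG cells under siEZH2, the authors' deposited table listed 12 members, 7 of them higher and 5 lower than under siGFP (58.3% higher, interval 32.0 to 80.7%). Over all its rows, the authors' deposited table had 49.3% higher and 50.7% lower, so the member split lay near the background. The members had a median log2 value of 0.61 in the authors' deposited table and all rows one of -0.47, and the median size without sign was 0.93 and 0.84. The table holds only called rows, so a median with sign follows whichever direction has more rows. Within each direction the medians lay close together in the authors' deposited table. They were 1.01 for members and 1.01 for all among the higher rows, and -0.80 and -0.74 among the lower ones. The order of the names in the table was taken as siEZH2 over siGFP. The level of EZH2 itself was not analysed here, so the knockdown was not checked. The second siEZH2 library is called EZH2 in its title and EZH3 in its treatment label, and the title was followed.

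Among the motors that were higher, the authors' deposited table gave a log2 fold change of 1.77 for MYH15, a myosin heavy chain gene, which is 3.40-fold. The spindle kinesin KIF11 stood at 1.34 (2.53-fold) and the cytokinesis kinesin KIF20B at 1.28 (2.43-fold) in the authors' deposited table. The neuronal kinesin heavy chain KIF5C stood at 1.01 in the authors' deposited table. Both mitotic kinesins among the 12 were thus higher under siEZH2.

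The beta-tubulins TUBB4B and TUBB stood at log2 0.87 and 0.46 in the authors' deposited table, and the centrosomal gene CEP70, whose product binds gamma-tubulin, at 0.75. TUBB and TUBB4B are close copies of each other and of further tubulin genes, so their values are uncertain. TUBB lay near the smallest higher values of the table.

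Of the members that were lower, MYO5C, a vesicle motor of epithelial cells, had the largest change, with log2 -1.42 in the authors' deposited table (2.67-fold lower). DYNC1H1 stood at -0.98 in the authors' deposited table (1.97-fold lower) and DYNC1LI2, a light intermediate chain of the same dynein, at -0.74. IFT20 stood at -0.80 and the vesicle kinesin KIF1C at -0.65 in the authors' deposited table. Both dynein 1 genes among the 12 were thus lower. The siRNA libraries were counted without strand, and IFT20 overlaps TMEM97 and TUBB4B overlaps FAM166A on the opposite strand. Long noncoding RNA genes lie opposite DYNC1LI2, KIF1C, KIF5C, MYO5C and TUBB, and pseudogenes opposite DYNC1H1 and KIF11. For these genes the reads of both strands cannot be told apart.

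**Figure D5:**
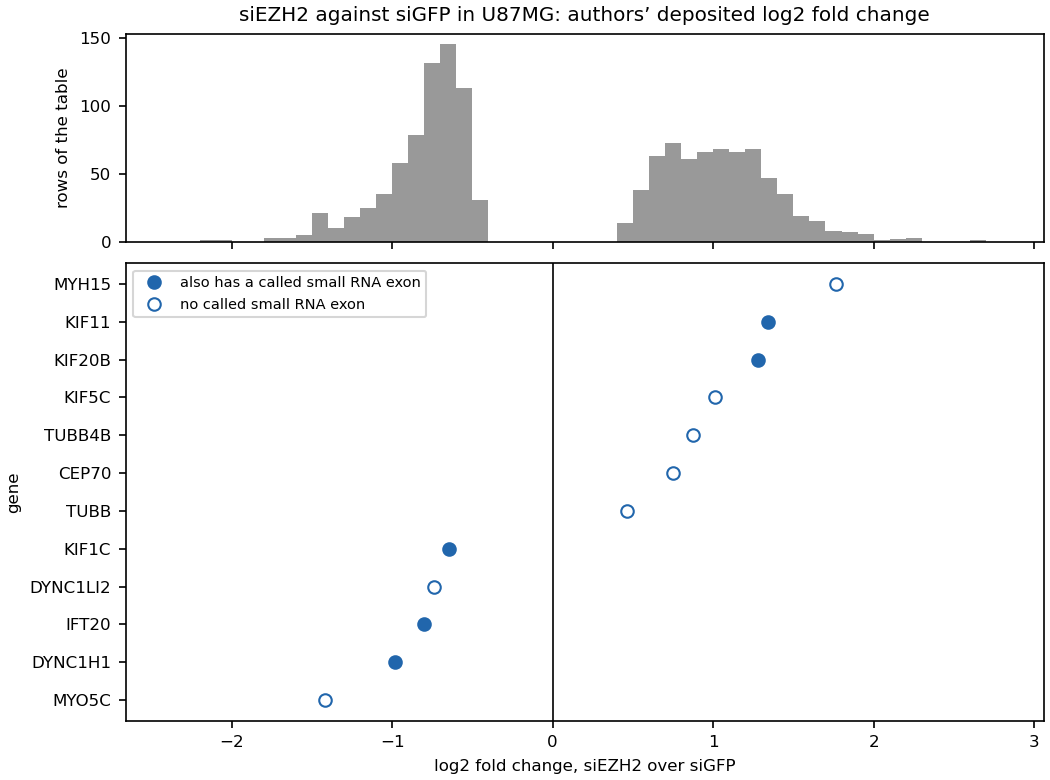
Authors' deposited log2 fold change, siEZH2 over siGFP in U87MG, for all 1342 rows (histogram, top) and for the 12 member genes (points, bottom), filled where the gene also has a called small RNA exon in any line. MYH15 lies highest at 1.77 and MYO5C lowest at -1.42, and of the 5 filled points 2 are higher and 3 lower.

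Of the 12 genes, 5 (41.7%) also had a small RNA exon in some line, beside 17.3% of all 1342 rows. They were KIF11 and KIF20B, which were higher, and DYNC1H1, IFT20 and KIF1C, which were lower in the authors' deposited table. Over all rows of genes with such an exon, 65 of 232 (28.0%) were higher in the authors' deposited table. Of these 5, DYNC1H1 alone had a small RNA exon in U87MG, the line of the siRNA experiment. DYNC1H1 and KIF1C were also the members shared with the full-length list. How an exon call bears on the direction under siEZH2 was not tested.

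The retained intron list of U87MG held 3 introns of 2 members, each with a score from the authors whose scale is not stated. MICAL3 had an intron of 1523 bp at chr22:18367123-18368645 (minus strand) with a score of 2.68, the highest of the 43 introns, and one of 1122 bp at chr22:18368816-18369937 with a score of 1.84, the ninth. These introns lie on either side of the U87MG exon 16 at chr22:18368644-18368817. IFT172 had an intron of 3044 bp at chr2:27672962-27676005 (minus strand) with a score of 1.10, rank 37, beside exon 36, which was called in T98G and U87MG. Since the list was made of introns beside small RNA exons, their place next to these exons is given by its construction.

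The other genes of the same machinery were described from a list of 175 genes without these name patterns: further centrosome and cilium genes, motor adaptors and regulators, and microtubule-associated proteins. Of these, 45 (25.7%) had a small RNA exon in some line, beside 9.77% of protein-coding genes. By line these were 42 in T98G (24%, beside 8.49%), 11 in U87MG (6.29%, beside 2.58%) and 5 in K562 (2.86%, beside 1.6%). The full-length list held 10 (5.71%, beside 4.27%) and the intron list 1 (0.571%, beside 0.169%). Their genes were picked by hand with earlier results known, so these shares support nothing further. MACF1, a spectraplakin that links microtubules and actin, had 3 exons in K562, 9 in T98G, 8 in U87MG and 1 retained intron. Its relative DST had 1, 5 and 3 exons in these lines, the spectrin SPTBN1 had 3 in T98G and 1 in U87MG, and the myosin chaperone UNC45A 2 and 1. SPTBN1 and UNC45A were also in the full-length list.

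Of the 175, the authors' deposited table listed 14 (8%, beside 6.3%), 7 higher and 7 lower under siEZH2. The higher ones were the mitotic kinesin KIFC1 (log2 1.46), CC2D2A (0.97), MAP1B (0.96), TTLL7 (0.86), MAPRE2 (0.84), MLPH (0.74) and MAPRE1 (0.64) in the authors' deposited table. The lower ones included the ciliary gene BBS4 (-0.69), the centrosomal genes ALMS1 (-0.85) and KIAA0753 (-0.68), the microtubule-severing enzyme SPAST (-0.78), MAP2 (-0.68) and CLIP1 (-0.67) in the authors' deposited table. CLIP1, a plus-end protein, was also called in T98G and U87MG small RNA with 1 exon each.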

How the data were processed

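The files hold lists of regions, with no values per library. Small RNA reads were trimmed with cutadapt, mapped to hg19 with BWA and counted per exon with bedtools, and the authors then called exons with DESeq2 and peaks with pyicoclip, per the labels' protocols. Long RNA and siRNA reads were aligned with Tophat and iCLIP reads with Bowtie2, counted per gene with featureCounts and called with DESeq2, per the labels' protocols. Tophat 2 version 2.0.11 and CASAVA 1.8 are named in the submitters' processing notes. Thresholds and the exon annotation are not given in the sources used here, and neither is whether the long RNA libraries entered the full-length list. For siEZH2 the authors deposited log2 fold changes without errors, and only of genes they called. The intron list holds a deposited score of unstated scale. In the T98G small RNA list the deposited value is a distance, and the exon middle minus this distance was taken as the peak middle. The files do not state this sign, and it was chosen because it places AGAT downstream of the peaks. In the other exon lists and the full-length list it counts the joined names and was not used.

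Symbols were taken from the first name of each row. Exons were placed on GENCODE release 44 mapped to GRCh37 with Python 3.11.15 and pysam 0.24.0. The call of AGAT in a window was tested on simulated sequences, and overlap counts were not. Overlap needed 1 shared base on the same strand. Where a count was 0, the limit is 3 counts of the total. Members and lists were chosen with earlier results of these data known. Values are given for members in the siRNA, full-length or intron list. They are also given for members with 2 or more exons in a list or with an exon in several lines. Windows are those with AGATCG, plus the first 4 without AGAT among wholly coding exons called in T98G alone. The further windows and whole exons were chosen after their values were seen. Some items are not reported here.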

Additional observations from a re-analysis of the deposited data

How the results depend on the processing

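Of 52 alternative values, 43 stayed within 1.5 times a count or inside the 95% interval of a share. Without the MICAL and tubulin families, 1 member had a retained intron instead of 2. With all 307 annotated genes of these names as denominator, pseudogenes included, every share fell by the same factor: to 13% from 20.1% in T98G, 2.61% in K562, 5.86% in U87MG, 3.91% in both the full-length list and the siEZH2 table, and 0.651% in the intron list, of which T98G left its interval. At an absolute log2 fold change of 1 or more, 4 members were higher and 1 lower in the authors' deposited table. AGAT started at base 11 alone in 7.25% of member peaks, and with the other sign of the deposited distance it started at bases 11 to 15 in 0%. With AGATC in place of AGATCG, the share of member exons was 50.0% in K562, 37.1% in T98G and 33.3% in U87MG, beside 39.0%, 44.6% and 41.0% of all exons. Adding genes whose current symbol has these names, an alternative chosen after seeing the data, moved no count by over 1.5 times. No paired analysis was possible because the lists hold no values per library; for the same reason no library could be left out. Unknown depth limits every comparison between lines, since K562 had 1 library per antibody and the other lines 2.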

Other observations

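Some genes of the same machinery are listed under older symbols and so were not among the 58. WDR34, now named DYNC2I2 and an intermediate chain of the dynein 2 whose heavy chain is DYNC2H1, had 1 exon at chr9:131402970-131403218 (minus strand) called in both T98G and U87MG. Both introns next to that exon were in the retained intron list, with deposited scores of 1.61 and 1.24. WDR34 stood at log2 -0.88 in the authors' deposited table of siEZH2 over siGFP. It was therefore in 4 lists. CCDC41, now CEP83, a protein that anchors the mother centriole to the membrane, had 1 exon in T98G at chr12:94794626-94794897. HSPB11, now IFT25, had 1 exon in T98G at chr1:54394045-54394673.

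Purines made up 57.2% of bases 1 to 10 downstream of the member peak middles in T98G and 66.4% of bases 16 to 25, beside 53.9% and 68.8% around all peaks. The peak middle lay at a median of 45.1% of the exon's width from its 5′ end, and the most distant ones lay just outside the exon, at -17.2% and 102%.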
